A study of Mus musculus with 64 samples.

Results

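The brain's endocannabinoid system was followed through 7 genes in a study of psilocybin in mice. They were Cnr1, the CB1 cannabinoid receptor, the biosynthetic enzymes Napepld, Dagla and Daglb, and the degrading enzymes Faah, Mgll and Abhd6. They were taken by symbol from a table of 55401 genes, each symbol matched 1 gene identifier, and all 7 were among the 18971 genes that passed the filter on low counts. Ten-week-old male C57BL/6J mice, kept on chow in group housing, received 1 intraperitoneal injection of psilocybin at 3 mg/kg or of isotonic saline. Tissue was taken 3 h or 4 weeks after the injection, in the morning, from the prefrontal cortex (PFC, named frontal cortex in the study's design description) and the whole hypothalamus. The design had 32 mice, 8 for each combination of treatment and time, and both regions of every mouse were sequenced as separate poly-A RNA libraries. No group carried a transgene or a deletion, and saline was the control at each time.

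Endocannabinoids are lipid messengers that postsynaptic neurons make on demand and that act backwards on presynaptic CB1 receptors to lower transmitter release. Anandamide is released from membrane N-acyl phospholipids by NAPE-PLD, the product of Napepld, and is hydrolysed by FAAH. 2-arachidonoylglycerol (2-AG) is made from diacylglycerol by the lipases DAGLα (Dagla) and DAGLβ (Daglb), and is removed mainly by monoacylglycerol lipase (Mgll) and to a lesser extent by ABHD6. In the cortex CB1 is known to be densest on terminals of cholecystokinin (CCK) interneurons, while in the hypothalamus the system is known for its part in feeding and stress responses.

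The question put to these genes was whether psilocybin changed them in either region at either time, and the design also allowed the regions and the times to be compared. The 62 libraries used held between 8061033 and 70361839 counted reads. Of the 64 libraries, 2 with 200066 and 211111 counted reads were left out. They were a PFC library of the psilocybin 4-week group and a hypothalamic library of the saline 3 h group, so each of these groups had 7 libraries and the other 6 groups had 8. The tissue labels held in every library used. The summed level of 5 excitatory cortical neuron genes was 1308 to 1912 counts per 1000000 counted reads (CPM) in the PFC and 21.8 to 121 CPM in the hypothalamus. That of 8 hypothalamic genes was 0.938 to 14.0 CPM in the PFC and 331 to 2696 CPM in the hypothalamus. The medians of Sim1 and Hcrt in the PFC were 0 and 0.0592 CPM. Some libraries stood apart. The 6 striatal genes reached 1184 CPM in 1 PFC library of the saline 4-week group (replicate 6), against a PFC median of 165 CPM. The 8 wound healing and immune genes reached 184 CPM in 1 hypothalamic library of the saline 4-week group (replicate 6), against a median of 46.1 CPM among 4-week hypothalamic libraries. They also reached 95.4 CPM in a PFC library of the psilocybin 3 h group (replicate 5), against a PFC median of 25.4 CPM. The 4 choroid plexus genes reached 1188 CPM in a hypothalamic library of the saline 4-week group (replicate 3), against a hypothalamic median of 23.8 CPM. In a hypothalamic library of the psilocybin 4-week group (replicate 5) the hypothalamic genes reached their highest sum, 2696 CPM against a median of 518 CPM at 4 weeks, and 5 astrocyte genes their lowest, 1839 CPM against 3276 CPM. In this library and in replicate 7 of the PFC psilocybin 3 h group, Cnr1 was far below the rest of the group, and several differences are therefore also given without one of them.

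The promoters of the 3 enzymes that differed between the times in the PFC are shown because these genes moved in the same direction there. They are the 250 bases before the first annotated start of each gene in RefSeq, build GRCm38.p6, written 5′ to 3′ on the strand of the gene.
Mgll, chr6:88724162-88724411, plus strand: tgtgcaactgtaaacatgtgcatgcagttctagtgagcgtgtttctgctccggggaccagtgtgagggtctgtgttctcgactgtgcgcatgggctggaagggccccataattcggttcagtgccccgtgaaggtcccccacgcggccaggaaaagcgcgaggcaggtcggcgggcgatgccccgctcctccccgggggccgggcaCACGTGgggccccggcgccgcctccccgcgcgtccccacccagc
Abhd6, chr14:8002638-8002887, plus strand: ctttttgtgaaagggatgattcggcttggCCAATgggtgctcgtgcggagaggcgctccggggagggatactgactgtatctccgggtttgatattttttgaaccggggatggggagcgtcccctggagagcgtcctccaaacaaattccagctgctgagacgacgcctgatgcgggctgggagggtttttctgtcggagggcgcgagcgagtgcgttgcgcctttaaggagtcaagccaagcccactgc
Napepld, chr5:21701623-21701872, minus strand: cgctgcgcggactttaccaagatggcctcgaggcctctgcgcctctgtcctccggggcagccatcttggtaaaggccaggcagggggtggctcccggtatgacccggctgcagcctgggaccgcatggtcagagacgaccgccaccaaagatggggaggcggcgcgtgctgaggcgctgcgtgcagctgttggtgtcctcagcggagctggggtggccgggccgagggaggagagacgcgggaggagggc
Capitals mark matches to 4 short motifs searched on both strands. The first, CACGTG, is a form of the E-box bound by helix-loop-helix factors. Searched as well were the GC box motif of Sp-type factors, written GGGCGG, and the box bound by nuclear factor Y, written CCAAT. The last was the core of the box that binds the TATA-binding protein, written TATAAA. The Mgll window held 1 CACGTG, 44 bases before the start, and the Abhd6 window held 1 CCAAT, 221 bases before it. None of the 4 was found in the Napepld window. Mgll and Abhd6 also had a second annotated start, not shown. The only match there was a GGGCGG, 121 bases before that start for Mgll and 38 bases before it for Abhd6. Cnr1, which was not called between the times, had a CACGTG 49 bases before its second start. CACGTG was present in 6.02% of the 32851 RefSeq promoter windows of this length, GGGCGG in 32.7%, CCAAT in 33.8% and TATAAA in 12.4%. The G and C content was 68% for Mgll, 58.4% for Abhd6 and 69.6% for Napepld, against a mean of 53.2% over all windows. A match of letters is a description and not a binding site, and 6 of the 7 genes had a window in the RefSeq table.

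All 7 genes were detected in every library used, with at least 163 counts. Mgll was the most abundant of them, and the order of the others per length of transcript was nearly shared between the regions. Levels were compared between genes as CPM per kilobase of exon. The PFC mean of 31 libraries was 88.8 ± 15.01 (SD) for Mgll, 29.8 ± 4.62 for Cnr1 and 27.1 ± 3.88 for Abhd6. Dagla followed at 21.7 ± 4.15, Faah at 13.9 ± 2.06, Napepld at 5.55 ± 0.954 and Daglb at 4.34 ± 0.472. Mgll stood above Cnr1 in 31 of 31 PFC libraries. The neighbours Cnr1 and Abhd6 kept this order in 23 of 31, and the mean log2 difference between them of 0.13 was smaller than its SD of 0.33. Abhd6 was above Dagla in 25 of 31, and the SD of that difference, 0.31 on the log2 scale, was close to its mean of 0.33.

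In the hypothalamus the mean per kilobase was 17.9 ± 2.60 for Mgll, 15.7 ± 3.19 for Cnr1, 14.0 ± 1.32 for Abhd6 and 10.7 ± 1.76 for Dagla (SD, n = 31). Napepld at 5.99 ± 0.832 came before Faah at 4.87 ± 0.348, and Daglb was again last at 2.73 ± 0.168. The first 3 genes were not well separated there, since Mgll exceeded Cnr1 in 20 of 31 libraries and Cnr1 exceeded Abhd6 in 23 of 31. The order of Napepld and Faah was exchanged between the regions. Faah was above Napepld in 31 of 31 PFC libraries and below it in 29 of 31 hypothalamic libraries. Of the pair of enzymes that make 2-AG, Dagla had the higher level per kilobase in both regions.

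**Figure D1:**
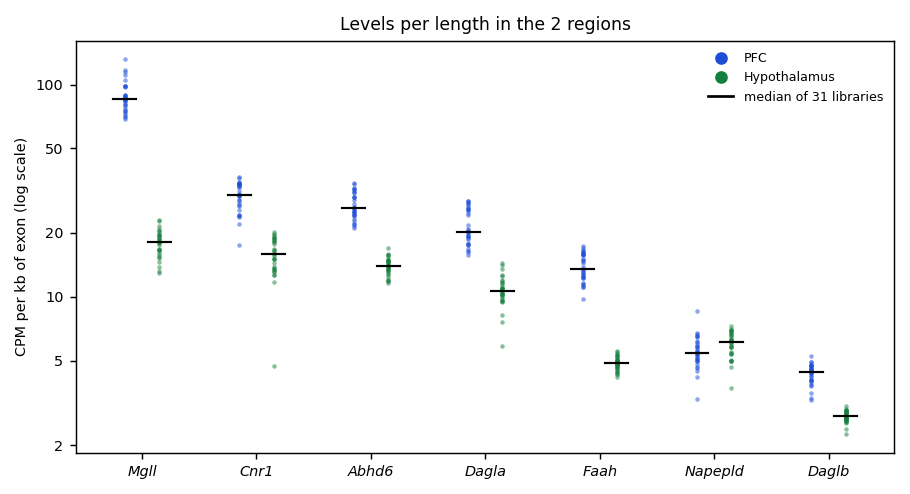
Level of each gene in CPM per kilobase of exon in every PFC and hypothalamic library (31 each), on a log axis, with the median marked. Mgll stands apart at the top of the PFC with a mean of 88.8, whereas Mgll, Cnr1 and Abhd6 lie between means of 14.0 and 17.9 in the hypothalamus.

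The 7 genes were first compared between the regions. Of the 7, 6 were higher in the PFC and 1, Napepld, was lower, where 76.2% of all genes passed the threshold, 39.6% higher in the PFC and 36.5% lower. The test was the quasi-likelihood test of edgeR, and p-values were adjusted after Benjamini and Hochberg over all genes tested and called under 0.05. The median log2 difference of the 7 genes was 0.94, against 0.02 over all genes tested. Region cannot be told apart from the extraction pool, because the PFC libraries were all extracted in pools C and D and the hypothalamic libraries in pools A and B. In bulk tissue, fewer cells of a type and less RNA per cell also cannot be told apart.

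Cnr1 (ENSMUSG00000044288.6, chromosome 4, 33924593 to 33948831 on the plus strand of GRCm38) ranged from 113 to 236 CPM in the PFC with a median of 195, and from 30.5 to 130 CPM in the hypothalamus with a median of 102. Its log2 difference was 0.93 ± 0.0682 (SE), a 1.90-fold higher level in the PFC (edgeR's quasi-likelihood test, adjusted p = 6.66e-19). In 30 of the 31 PFC libraries the receptor was above every hypothalamic library, and it was higher in the PFC in 30 of the 30 mice with both libraries.

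Among the biosynthetic genes, Dagla (ENSMUSG00000035735.10, chromosome 19, 10245265 to 10304877, minus strand) spanned 90.8 to 163 CPM in the PFC with a median of 116 and 33.7 to 82.7 CPM in the hypothalamus with a median of 61.4. The ranges did not overlap, and the log2 difference was 1.01 ± 0.0640 (SE, adjusted p = 7.42e-22, edgeR). Daglb (ENSMUSG00000039206.13, chromosome 5, 143464584 to 143505942, plus strand) spanned 31.3 to 50.3 CPM in the PFC with a median of 42.4 and 21.6 to 29.1 CPM in the hypothalamus with a median of 26.3, again without overlap. Its log2 difference was 0.67 ± 0.0344 (SE, adjusted p = 4.25e-26, edgeR). Daglb overlaps Rac1 on the opposite strand, a gene with a mean of 231 CPM in either region. Its absolute level is uncertain, because the strand setting of the read counting is not given in the sources used here.

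Napepld (ENSMUSG00000044968.16, chromosome 5, 21662901 to 21701396, minus strand) went the other way and by little. It spanned 13.1 to 33.9 CPM in the PFC with a median of 21.5 and 14.7 to 28.8 CPM in the hypothalamus with a median of 24.2, and the ranges overlapped almost entirely. The log2 difference was −0.11 ± 0.0510 (SE, adjusted p = 0.0388, edgeR), and it was lower in the PFC in 18 mice and higher in 12. With the mouse as a block the value was −0.11 with an adjusted p of 0.0813, so the call ended. It also ended when any 1 of 19 libraries was left out, with adjusted p between 0.00699 and 0.0623 over all 62 omissions. Taken set by set, the difference passed the threshold in saline-treated mice at 4 weeks, at −0.38 (adjusted p = 0.00115, edgeR). It did not pass in saline-treated mice at 3 h (0.01, adjusted p = 0.926) or in psilocybin-treated mice at 3 h (−0.05, adjusted p = 0.679) or 4 weeks (−0.04, adjusted p = 0.75). The other 6 genes passed in all 4 sets. Of all genes, 54.9% passed in saline-treated mice at 3 h, 55.2% in those at 4 weeks, 56.2% in psilocybin-treated mice at 3 h and 58% in those at 4 weeks.

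Of the degrading enzymes, Mgll and Faah showed the widest regional gaps of the 7 genes. Mgll (ENSMUSG00000033174.17, chromosome 6, 88724412 to 88828360, plus strand) spanned 348 to 667 CPM in the PFC with a median of 436 and 65.7 to 116 CPM in the hypothalamus with a median of 92.1. The lowest PFC library was thus well above the highest hypothalamic one, and the log2 difference was 2.30 ± 0.0424 (SE, adjusted p = 5.89e-49, edgeR), a 4.94-fold higher level. It exceeded the log2 difference of 97.5% of all genes tested. Faah (ENSMUSG00000034171.13, chromosome 4, 115967145 to 116017675, minus strand) spanned 76.6 to 136 CPM in the PFC with a median of 106 and 32.8 to 43.6 CPM in the hypothalamus with a median of 38.4. The ranges were separate, with a log2 difference of 1.51 ± 0.0395 (SE, 2.84-fold, adjusted p = 4.32e-41, edgeR). Abhd6 (ENSMUSG00000025277.14, chromosome 14, 8002902 to 8056763, plus strand) spanned 50.04 to 81.0 CPM in the PFC with a median of 61.9 and 27.4 to 40.1 CPM in the hypothalamus with a median of 33.1. It too did not overlap, and its log2 difference was 0.94 ± 0.0333 (SE, adjusted p = 2.55e-34, edgeR).

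For 5 of the 7 genes (Dagla, Daglb, Faah, Mgll and Abhd6) every PFC library was above every hypothalamic library, a state reached in the same direction by 6.57% of all genes tested. Within mice the PFC level exceeded the hypothalamic level in 30 of 30 pairs for each of these 5 and for Cnr1. The median ratio was 4.83 for Mgll, 2.89 for Faah, 1.92 for Dagla, 1.86 for Abhd6, 1.84 for Cnr1 and 1.66 for Daglb. The ratio of Mgll to Dagla in CPM per kilobase, a degrading to a producing enzyme of 2-AG, had group means of 3.83 to 4.61 in the PFC and 1.61 to 1.96 in the hypothalamus. That of Faah to Napepld, the like pair for anandamide, had group means of 2.27 to 3.06 and 0.794 to 0.905.

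**Figure D2:**
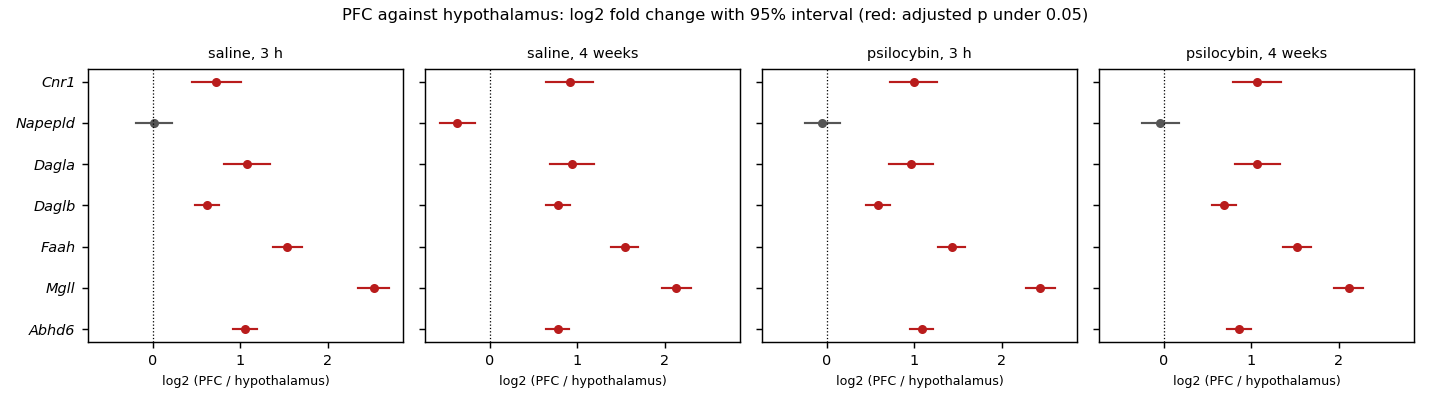
Log2 difference between PFC and hypothalamus for each gene in each of the 4 sets of mice, with 95% confidence intervals and red for adjusted p under 0.05 (edgeR). Mgll lies farthest to the right in every set, at 2.11 to 2.53, and Napepld farthest to the left, at −0.38 to 0.01.

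Other genes of the pathway also differed by region. The list held other cannabinoid-responsive receptors, CB1 partners, enzymes of N-acyl ethanolamine synthesis, phospholipases that supply diacylglycerol, further degrading enzymes and lipid carriers. Of 26 tested among 27 listed, 15 were higher in the PFC and 7 lower, beside 39.6% and 36.5% of all genes, and the median log2 difference was 0.45. Of the 3 higher genes with the smallest p, Plcb1, a phospholipase C that supplies diacylglycerol, had a mean of 327 CPM in the PFC and 96.7 CPM in the hypothalamus (log2 difference 1.76, adjusted p = 3.77e-36). The others were Ptgs2, the cyclooxygenase COX-2 that can oxygenate endocannabinoids (20.1 and 1.05 CPM, 4.36, adjusted p = 2.23e-29), and Inpp5d, an inositol phosphatase (27.6 and 11.2 CPM, 1.29, adjusted p = 5.14e-29). The 3 lower genes with the smallest p were Plcb4, another phospholipase C (92.9 and 169 CPM, −0.86, adjusted p = 7.89e-22), Ces1d, a carboxylesterase (median 0.0522 and 1.96 CPM, −4.34, adjusted p = 1.42e-11), and Gdpd1, a lysophospholipase D (44.4 and 52.4 CPM, −0.24, adjusted p = 9.71e-11). All of these p-values are from edgeR's quasi-likelihood test.

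No change of the 7 genes with psilocybin was detected in either region at either time. In the PFC at 3 h, 0 of the 7 passed the threshold (edgeR), where 2 of 18971 genes did (0.0105%). In the other 3 comparisons, the PFC at 4 weeks and the hypothalamus at 3 h and at 4 weeks, 0 of the 7 and 0 of all genes (0%) passed. At an unadjusted p under 0.05 the number among the 7 was 0 in each of the 4 comparisons. Over all genes it was 1371 (7.23%) in the PFC at 3 h and 456 (2.4%) at 4 weeks, and 337 (1.78%) in the hypothalamus at 3 h and 1823 (9.61%) at 4 weeks. A model of the study's kind was also run, limma voom with sample quality weights and the mouse as a random block. With it 1232 genes (6.49%) passed in the PFC at 3 h and 0 in the other 3 comparisons, and 0 of the 7 were among them. Of the 26 further pathway genes, 0 passed in any of the 4 comparisons (edgeR), and 1, 1, 0 and 2 of them had an unadjusted p under 0.05.

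The CB1 receptor was examined first. In the PFC at 3 h Cnr1 was 142 to 235 CPM with a median of 185 after saline and 113 to 222 CPM with a median of 218 after psilocybin. The ranges overlapped, and the lowest psilocybin value belonged to the library noted above, whose 7 companions lay between 195 and 222 CPM. The log2 difference was 0.10 ± 0.132 (SE, 95% confidence interval −0.161 to 0.369, adjusted p = 0.92, edgeR), and it was 0.19 without this library and 0.06 without saline replicate 4, neither past the threshold. In the PFC at 4 weeks Cnr1 was 165 to 236 CPM with a median of 185 after saline and 156 to 223 CPM with a median of 194 after psilocybin, a log2 difference of 0.03 ± 0.137 (SE, interval −0.243 to 0.306, adjusted p = 1). It ran from −0.01 to 0.07 when each library was left out, and was below 0 without replicate 8 of the psilocybin group. In neither case could a change of the receptor be told from the spread between mice.

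In the hypothalamus at 3 h Cnr1 was 84.3 to 127 CPM with a median of 118 after saline and 75.5 to 122 CPM with a median of 103 after psilocybin, a log2 difference of −0.16 ± 0.138 (SE, interval −0.439 to 0.113, adjusted p = 1, edgeR). At 4 weeks it was 81.7 to 126 CPM with a median of 99.6 after saline and 30.5 to 130 CPM with a median of 93.1 after psilocybin, a log2 difference of −0.12 ± 0.133 (SE, interval −0.390 to 0.144, adjusted p = 0.8). The lowest of these, 30.5 CPM, came from replicate 5, the library with the highest sum of hypothalamic genes, and without it the difference was 0.01. The intervals of the 4 comparisons together ran from −0.439 to 0.369, and a p that misses the threshold does not show that the levels were alike.

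**Figure D3:**
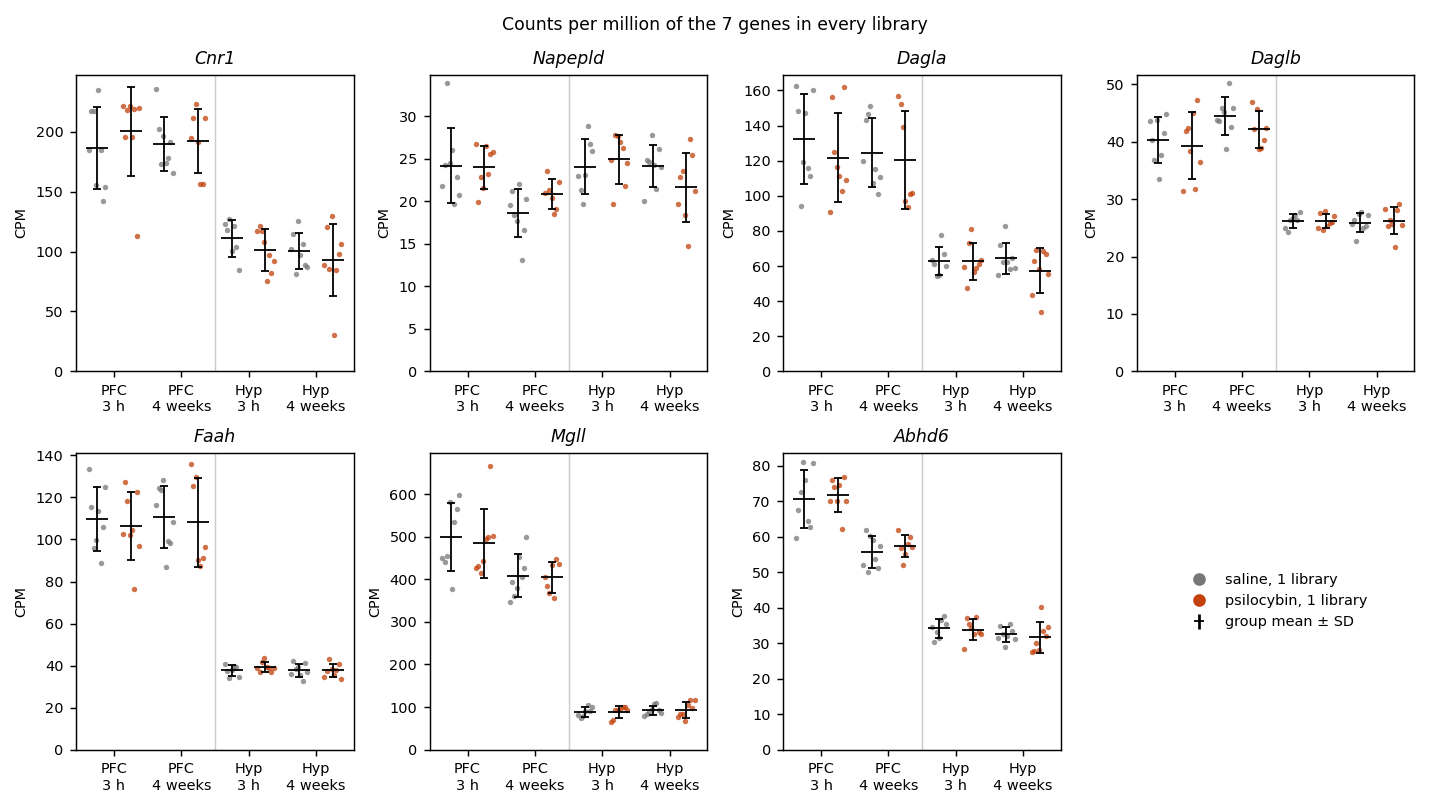
CPM of each of the 7 genes in all 62 libraries, by region, time and treatment, with black bars for the group mean ± SD. Saline and psilocybin points overlap in every panel, while every PFC point lies above every hypothalamic one for Dagla, Daglb, Faah, Mgll and Abhd6, and 1 psilocybin 4-week hypothalamic library has Cnr1 at 30.5 CPM.

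The biosynthetic genes overlapped between treatments in the same way. In the PFC at 3 h Dagla was 94.0 to 163 CPM with a median of 133 after saline and 90.8 to 162 CPM with a median of 114 after psilocybin. Its log2 difference of −0.12 ± 0.124 (SE, adjusted p = 0.878, edgeR) was the lowest of the 7 there. It was −0.22 without psilocybin replicate 7 and −0.06 without saline replicate 8. At 4 weeks in the PFC it was 101 to 151 CPM with a median of 117 after saline and 93.6 to 157 CPM with a median of 102 after psilocybin. These ranges overlapped widely, and the gene also varied with the extraction pool, with a median of 143 CPM in PFC pool C and 109.9 CPM in pool D. In the hypothalamus Dagla was 54.1 to 77.8 CPM after saline and 47.4 to 81.2 CPM after psilocybin at 3 h, with medians of 61.4 and 60.3. At 4 weeks there it was 54.8 to 82.7 CPM with a median of 62.3 after saline and 33.7 to 69.3 CPM with a median of 60.6 after psilocybin. Its log2 difference of −0.17 ± 0.126 (SE, adjusted p = 0.712) was the lowest of the 7 and was −0.08 without the library of replicate 5.

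Daglb overlapped between treatments as well. In the PFC at 3 h it was 33.5 to 44.8 CPM with a median of 40.9 after saline and 31.3 to 47.2 CPM with a median of 40.1 after psilocybin. At 4 weeks it was 38.8 to 50.3 CPM with a median of 44.5 and 38.7 to 47.0 CPM with a median of 42.3, and its log2 difference of −0.08 ± 0.0690 (SE) was the lowest of the 7 and was −0.04 without the library with high striatal genes. In the hypothalamus the 4 group medians were between 25.95 and 26.4 CPM, so the gene was nearly level there. Its log2 difference at 4 weeks, 0.01 ± 0.0681 (SE, adjusted p = 0.971, edgeR), was the highest of the 7. It was 0.05 without replicate 5 of the psilocybin group and −0.01 without replicate 3 of the saline group.

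Napepld showed the same overlap. In the PFC it was 19.6 to 33.9 CPM with a median of 23.6 after saline and 19.9 to 26.7 CPM with a median of 24.3 after psilocybin at 3 h. At 4 weeks it was 13.1 to 22.0 CPM with a median of 19.0 after saline and 18.5 to 23.6 CPM with a median of 21.0 after psilocybin. The log2 difference of 0.17 ± 0.104 (SE, adjusted p = 1, edgeR) was the highest of the 7 and was 0.11 without the library with high striatal genes. In the hypothalamus it was 19.7 to 28.8 CPM with a median of 23.0 after saline and 19.7 to 27.7 CPM with a median of 25.6 after psilocybin at 3 h. This log2 difference of 0.06 ± 0.103 (SE) was again the highest of the 7, and it ranged from 0.02 to 0.10 when each library was left out. At 4 weeks the corresponding medians were 24.5 and 22.0 CPM, with ranges of 20.03 to 27.8 and 14.7 to 27.3. All of these ranges overlapped.

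The degrading enzymes did not separate by treatment either. Faah in the PFC was 88.7 to 133 CPM with a median of 110 after saline and 76.6 to 127 CPM with a median of 104 after psilocybin at 3 h. At 4 weeks it was 87.0 to 128 CPM with a median of 112 and 87.5 to 136 CPM with a median of 96.6. In the hypothalamus its 4 group medians were between 37.7 and 38.8 CPM. The anandamide hydrolase varied little there, with a coefficient of variation of 7.15% over 31 libraries. Mgll in the PFC at 3 h was 378 to 598 CPM with a median of 494 after saline and 414 to 667 CPM with a median of 468 after psilocybin. At 4 weeks it was 348 to 499.6 CPM with a median of 400.2 and 356 to 449 CPM with a median of 405. In the hypothalamus the medians of Mgll were 91.2 CPM after saline and 93.2 CPM after psilocybin at 3 h, and 91.3 and 91.2 CPM at 4 weeks. The hypothalamic medians of Mgll thus lay close together. Abhd6 in the PFC had medians of 70.1 CPM after saline and 72.1 CPM after psilocybin at 3 h, and of 55.6 and 57.2 CPM at 4 weeks. The hypothalamic medians of Abhd6 were 34.6 and 33.7 CPM at 3 h and 32.3 and 31.01 CPM at 4 weeks.

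**Figure D4:**
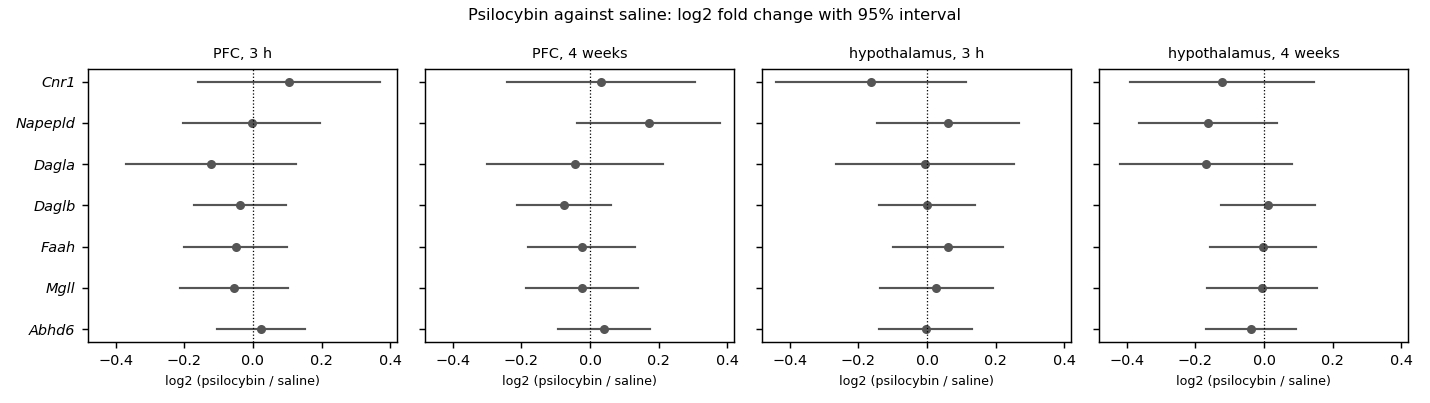
Log2 difference between psilocybin and saline for each gene in the PFC and hypothalamus at 3 h and 4 weeks, with 95% confidence intervals (edgeR). Every interval includes 0, the widest belong to Cnr1 and Dagla, and no value passes the threshold of adjusted p under 0.05.

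Whether the response to psilocybin itself differed between the regions or the times was tested directly, and 0 of the 7 genes and 0 of all genes (0%) passed in any of the 4 such tests (edgeR). Between the regions at 3 h the gene with the largest absolute difference was Cnr1, with 0.27 ± 0.191 (SE, adjusted p = 1) on the log2 scale for the PFC minus the hypothalamus. Between the regions at 4 weeks it was Napepld, with 0.33 ± 0.145 (SE, unadjusted p = 0.0246, adjusted p = 0.737). It was the only one of the 7 under an unadjusted p of 0.05 in these tests, a level that 6.69% of all genes reached in this one. Between 3 h and 4 weeks Napepld again had the largest absolute difference, −0.18 in the PFC (adjusted p = 1) and 0.22 in the hypothalamus (adjusted p = 0.915). None of these differences passed the adjustment over all genes.

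The time of tissue collection made a difference in the PFC. In saline-treated mice 3 of the 7 genes, Abhd6, Mgll and Napepld, were lower at 4 weeks than at 3 h and 0 were higher (edgeR). Of all genes 4.72% passed the threshold and 2.39% were lower. In psilocybin-treated mice 2 of the 7, Abhd6 and Mgll, were lower and 0 higher, where 5.96% of all genes passed and 2.7% were lower. The median log2 difference of the 7 genes was −0.10 in saline-treated and −0.05 in psilocybin-treated mice, against 0.0040 and −0.0080 over all genes tested. The mice collected at 4 weeks were also 4 weeks older, and the time since injection and age cannot be told apart.

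Abhd6, the lesser 2-AG hydrolase, had the most regular change. In saline-treated mice it was 59.6 to 81.0 CPM with a median of 70.1 at 3 h and 50.04 to 61.9 CPM with a median of 55.6 at 4 weeks. In psilocybin-treated mice it was 62.1 to 77.0 CPM with a median of 72.1 and 52.1 to 61.9 CPM with a median of 57.2. In psilocybin-treated mice 7 of 7 later libraries were below every 3 h library, a separation that 0.696% of all genes showed in this direction, and in saline-treated mice 6 of 8 were. The log2 difference was −0.34 ± 0.0644 (SE, 1.27-fold lower, adjusted p = 0.000408, edgeR) in saline-treated and −0.32 ± 0.0669 (SE, 1.25-fold lower, adjusted p = 0.0012) in psilocybin-treated mice. Both calls were kept when any single library was left out, with adjusted p of at most 0.00674. They ended within either extraction pool alone, where the log2 difference was −0.33 (adjusted p = 0.0913) and −0.34 (0.291) after saline and −0.34 (0.11) and −0.29 (0.269, edgeR) after psilocybin.

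Mgll, the main 2-AG hydrolase, fell with a wider spread. In saline-treated mice it was 378 to 598 CPM with a median of 494 at 3 h and 348 to 499.6 CPM with a median of 400.2 at 4 weeks, and 7 of the 8 later libraries were below the 3 h median. The log2 difference was −0.30 ± 0.0790 (SE, adjusted p = 0.0164, edgeR), but without saline 3 h replicate 4 it was −0.24 with an adjusted p of 0.0786. The call of Mgll also ended without a filter (adjusted p = 0.0701), without the pool term (0.106), with only the compared groups (0.105) and in the second extraction pool alone (−0.21, adjusted p = 0.839, edgeR). In psilocybin-treated mice it was 414 to 667 CPM with a median of 468 at 3 h and 356 to 449 CPM with a median of 405 at 4 weeks, and 7 of 7 later libraries were below the 3 h median. The log2 difference of −0.27 ± 0.0820 (SE, adjusted p = 0.0381) lost its call without any 1 of 6 libraries, which were psilocybin 4 weeks replicates 2, 4, 5 and 6 and psilocybin 3 h replicates 4 and 7. Without replicate 7, whose 667 CPM was the highest of all, it was −0.20 with an adjusted p of 0.115. This call of Mgll also ended without a filter (adjusted p = 0.124), without the pool term (0.175) and with all 64 libraries (0.126, edgeR). In the first and the second pool alone it was −0.14 (adjusted p = 0.413) and −0.36 (0.356, edgeR).

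Napepld passed in saline-treated mice. It was 19.6 to 33.9 CPM with a median of 23.6 at 3 h and 13.1 to 22.0 CPM with a median of 19.0 at 4 weeks, with 8 of 8 later libraries below the 3 h median and 5 of 8 below every 3 h library. The log2 difference was −0.38 ± 0.1005 (SE, adjusted p = 0.0173, edgeR). Without saline 3 h replicate 3, the library at 33.9 CPM, it was −0.29 with an adjusted p of 0.0761. It was also not called without saline 4 weeks replicate 6, the library with high striatal genes. The call ended too under the voom procedure of the study's kind (−0.29, adjusted p = 0.0738), without a filter on low counts (adjusted p = 0.0621) and with only the compared groups (adjusted p = 0.1). In the first and the second pool alone it was −0.45 (adjusted p = 0.078) and −0.29 (0.696, edgeR). In psilocybin-treated mice Napepld was 19.9 to 26.7 CPM with a median of 24.3 and 18.5 to 23.6 CPM with a median of 21.0, a log2 difference of −0.20 with an adjusted p of 0.261. The difference between the treatments in this change is the same contrast as the −0.18 given above for the 2 times, which did not pass (adjusted p = 1).

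The other 4 genes did not pass in the PFC. Cnr1 had medians of 185 CPM at both times in saline-treated mice and of 218 and 194 CPM in psilocybin-treated mice, and the ranges of Dagla, Daglb and Faah given above overlapped between the times. In the hypothalamus 0 of the 7 passed, in saline-treated mice where 0.685% of all genes did and in psilocybin-treated mice where 1.16% did (edgeR). The lowest value there in saline-treated mice was that of Cnr1, −0.16 (adjusted p = 0.907), and the highest that of Mgll, 0.10 (adjusted p = 0.915). In psilocybin-treated mice the lowest was that of Napepld, −0.21 (unadjusted p = 0.039, adjusted p = 0.262), the only one of the 7 with an unadjusted p under 0.05, which 17.4% of all genes had. Without replicate 5 of the 4-week group it was −0.14, with an unadjusted p of 0.146 and an adjusted p of 0.684. The highest was again that of Mgll, 0.06 (adjusted p = 0.705), which ranged from 0.03 to 0.10 when each library was left out.

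**Figure D5:**
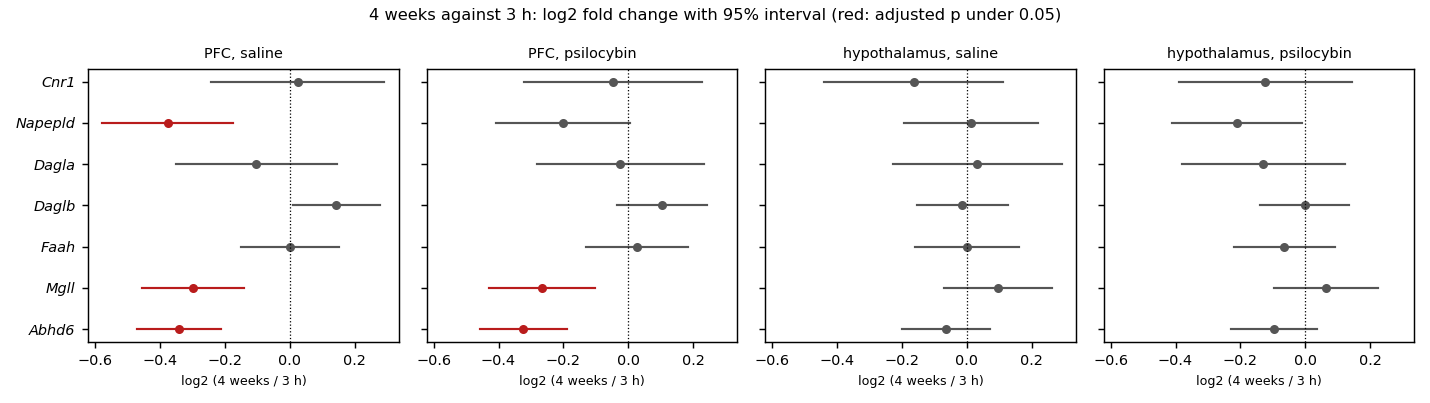
Log2 difference between 4 weeks and 3 h for each gene, by region in saline-treated and in psilocybin-treated mice, with 95% confidence intervals and red for adjusted p under 0.05 (edgeR). The red points are Abhd6 and Mgll in the PFC after either treatment and Napepld in the PFC of saline-treated mice, while no hypothalamic value is red.

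A comparison added after the data had been seen took the mean over both treatments. In the PFC the same 3 genes were lower at 4 weeks, where 17.1% of all genes passed and 7.92% were lower (edgeR): Abhd6 by a log2 difference of −0.33 ± 0.0464 (SE, adjusted p = 3.35e-07), Mgll by −0.28 ± 0.0569 (SE, adjusted p = 0.000256) and Napepld by −0.29 ± 0.0722 (SE, adjusted p = 0.00312). These 3 calls remained when any single library was left out. Within 1 extraction pool, Napepld lost its call in the first (−0.25, adjusted p = 0.0747) and in the second (−0.30, 0.125), and Mgll in the second (−0.28, 0.15, edgeR). Daglb had a log2 difference of 0.12 (adjusted p = 0.0658), and it passed without any 1 of 4 libraries, which were saline 3 h replicate 8, saline 4 weeks replicate 5 and psilocybin 3 h replicates 5 and 7. It also passed in 5 of 13 alternative fits, DESeq2 and the voom procedure among them, with adjusted p between 0.00791 and 0.682 over the 13. Of the 15 PFC libraries taken at 4 weeks, 15 were below the 3 h median for Abhd6, 15 for Napepld and 14 for Mgll. For Abhd6, 11 of the 15 were below every one of the 16 libraries taken at 3 h. In the hypothalamus 0 of the 7 passed, where 3.99% of all genes did.

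The difference between the regions in this change was tested as well, also after the data had been seen. The change from 3 h to 4 weeks in the PFC minus that in the hypothalamus was −0.36 ± 0.0810 (SE, adjusted p = 0.0135, edgeR) for Mgll and −0.25 ± 0.0662 (SE, adjusted p = 0.0397) for Abhd6, 2 of the 7 genes, where 1.06% of all genes passed and 0.633% were lower. With the mouse as a block the values were −0.36 (adjusted p = 0.0551) and −0.25 (adjusted p = 0.125), and both calls ended. The call of Mgll was kept when any single library was left out, while that of Abhd6 ended without any 1 of 21 libraries, the hypothalamic one with high wound healing and immune genes among them, with adjusted p between 0.0212 and 0.0688 over all 62 omissions. In saline-treated mice alone 0 of the 7 passed, where 0.0369% of all genes did, and in psilocybin-treated mice alone 0 passed, where 0.116% did. Seen from the regional side, Mgll was 5.76-fold higher in the PFC in saline-treated and 5.44-fold higher in psilocybin-treated mice at 3 h, and 4.38-fold and 4.33-fold higher at 4 weeks.

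Summed marker levels in the PFC are given by time of collection as a description, with no test. The summed level of 5 genes listed for CCK interneurons was 330 to 510 CPM with a median of 383 at 3 h and 247 to 383 CPM with a median of 322 at 4 weeks. Over both times this sum had a PFC median of 343 CPM. Cck alone had a median of 230 CPM there, Vip 77.8 CPM and Sncg 1.41 CPM, so the sum mainly follows Cck. The summed level of 5 microglial genes was 308 to 563 CPM with a median of 471 and 301 to 469 CPM with a median of 413. For 5 astrocyte genes it was 5018 to 8620 CPM with a median of 6564 and 4571 to 7417 CPM with a median of 5854. Excitatory cortical neuron genes had medians of 1572 and 1613 CPM, and the striatal genes 167 and 146 CPM. GABAergic neuron genes had medians of 629 and 632 CPM, oligodendrocyte genes 3742 and 3960 CPM and endothelial genes 117 and 113 CPM. The medians of choroid plexus genes were 8.64 and 10.98 CPM, of hypothalamic genes 2.33 and 3.34 CPM, and of wound healing and immune genes 26.1 and 24.6 CPM. The ranges of the 2 times overlapped for each of these lists. The part of these lists in the lower levels of Abhd6, Mgll and Napepld was not tested.

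The 26 further pathway genes were compared between the times as well. Pla2g4e, a calcium-dependent N-acyltransferase that makes the precursor of anandamide, was the only one called in saline-treated mice in the PFC. Its mean was 7.54 ± 3.17 CPM (SD, n = 8) at 3 h and 13.7 ± 4.18 CPM (n = 8) at 4 weeks (log2 difference 0.82, adjusted p = 0.0025, edgeR). In psilocybin-treated mice it rose from 6.72 ± 1.04 CPM (n = 8) to 13.7 ± 3.66 CPM (n = 7), without overlap (1.01, adjusted p = 0.000244), as 0.269% of all genes did in this direction. The other called gene there was Alox12, a lipoxygenase, at 0.290 and 0.754 CPM and with at most 25 counts in a library (1.29, adjusted p = 0.0266). Over both treatments 6 of the 26 were called in the PFC, where 17.1% of all genes were. Pla2g4e (0.92), Alox12 (0.91) and Gdpd3, a lysophospholipase D (0.72), were higher, and Abhd4, an N-acyl phospholipid lipase (−0.27), Inpp5d (−0.24) and Naaa, an acid amidase of N-acyl ethanolamines (−0.23), were lower at 4 weeks. In the hypothalamus, where 3.99% of all genes were called, 3 of the 26 were higher, Pla2g4e (0.52, adjusted p = 0.0124), Gpr55, a lysophospholipid receptor that also responds to cannabinoids (0.50, adjusted p = 0.0218), and Naaa (0.24, adjusted p = 0.0369). The change of Naaa differed between the regions by −0.47 (adjusted p = 0.00552). Its medians after saline were 48.4 CPM at 3 h and 44.0 CPM at 4 weeks in the PFC, and 27.1 and 31.7 CPM in the hypothalamus.

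The genes differed in how they varied between libraries of one group. Likeness was measured over the 62 libraries as the correlation of log2 CPM after removal of group and extraction pool means. Among the genes closest to Cnr1 were Grm5, the metabotropic glutamate receptor mGluR5 (Pearson's r = 0.921, Spearman's rho = 0.84) and Nlgn1, a synaptic adhesion gene (r = 0.896). Those closest to Dagla were Bsn, a presynaptic active zone protein (r = 0.911, rho = 0.898), Arhgap44 (r = 0.905) and Cntnap1 (r = 0.903). Libraries share their RNA preparation and depth in all such values, which are given as a description. Napepld was closest to Adarb2 (r = 0.746, rho = 0.671), one of the 5 CCK interneuron markers used here, and to Ildr2 (r = 0.727) and Homer2 (r = 0.695).

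For the other genes the nearest correlations were below 0.8. Faah was closest to Clstn1 (r = 0.794, rho = 0.734), Rnf112 (r = 0.775) and Tmem25 (r = 0.775), and Mgll to Ppp1r9b, the spine protein spinophilin (r = 0.792, rho = 0.699), Ncs1 (r = 0.74) and Src (r = 0.718). Daglb was closest to Txlna (r = 0.74, rho = 0.696), Dpf2 (r = 0.714) and Tom1l2 (r = 0.694). The genes nearest to Abhd6 were Aldoart2 (r = 0.615, rho = 0.586), Rpl7a-ps5 (r = 0.608) and Gm12231 (r = 0.584), which are copies or pseudogenes whose reads may be split with a parent gene and are uncertain. Among the 7 themselves the closest pair was Dagla and Faah (r = 0.749, rho = 0.79), then Daglb and Faah (r = 0.507) and Dagla and Daglb (r = 0.499). Mgll and Abhd6, which fell together with time, had r = 0.342 (rho = 0.422) within groups.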

How the data were processed

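The series measured poly-A RNA of the PFC and hypothalamus of mice by stranded paired-end sequencing. Per the labels and the study's methods, the authors made reads with bcl2fastq 2.20.0, aligned them to GRCm38 with STAR 2.7.2b and counted them on GENCODE vM25 with featureCounts 1.6.2, and the deposited values are raw counts per gene with no normalization. Gene positions and exon lengths are those of the deposited table. Gene identifiers were paired with symbols for 55141 of 55401 genes.

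Libraries under 1000000 counted reads were left out, which removed 2 of 64, and 62 with a median of 18287979 counted reads remained. The study also excluded a library rich in wound healing and immune genes without naming it, and none was left out for that reason here. Genes were kept by filterByExpr with a minimum count of 10. Counts were scaled by TMM and fitted in edgeR 4.0.16 (R 4.3.3) by the quasi-likelihood test in 1 model over all groups, with extraction pool within region as covariate, as in the study. P-values were adjusted by Benjamini-Hochberg over 18971 genes and called under 0.05. CPM and CPM per kilobase were computed from the counts and TMM-scaled library sizes. The procedure was tested on simulated data. Alternatives used limma 3.58.1 (voom with quality weights, consensus correlation within mouse 0.0282), DESeq2 1.42.0, other scaling, filters, covariates and libraries, and leaving out each library.

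The labels name a cage for each library, equal to its replicate number. Libraries of both regions with the same treatment, time and cage were taken as the same mouse. The mean correlation of their deviations from group means was 0.0854 over 30 mice, and 0.0289 once pool means were removed. The main edgeR model had no term for the mouse, so its comparisons of the regions were not paired. Only the alternatives with the mouse as a block or random block used this pairing. Whether mice with the same cage number in different groups share anything more is not stated, and p-values measure the spread between libraries of these mice. Over 210 pairs of replicates the counts differed by more than sampling noise (lowest chi-square per degree of freedom 3.85).

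The named genes were all 7 members in every comparison, the called genes of the pathway list (for the regions the 3 higher and 3 lower with the smallest p), and the 3 genes most correlated with each member. One gene that this rule names is not reported here. The members, lists and doubted libraries were chosen with earlier results of these data known. Fold changes are printed for called members, for Cnr1 under psilocybin, for the lowest and highest member where none was called, and for the largest difference in responses. Promoter sequences are from RefSeq, build GRCm38.p6.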

Additional observations from a re-analysis of the deposited data

Results flagged for a closer look

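Of 56 groups of libraries (7 genes in 8 groups), 5 held a library far from the others, where chance gives about 1 in 20. In the PFC 3 h after psilocybin, replicate 7 had Cnr1 at 113 CPM against 195 to 222 CPM in the other 7 libraries, and Mgll at 667 CPM against 414 to 501 CPM. Replicate 6 of the same group had Abhd6 at 62.1 CPM against 70.0 to 77.0 CPM. In the PFC 3 h after saline, replicate 3 had Napepld at 33.9 CPM against 19.6 to 26.0 CPM. In the hypothalamus 4 weeks after psilocybin, replicate 5 had Cnr1 at 30.5 CPM against 84.9 to 130 CPM. In the voom model these 2 libraries, replicate 7 and replicate 5, received sample weights of 0.12 and 0.0276.

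The change from 3 h to 4 weeks differed between the PFC and the hypothalamus, over both treatments, by −0.36 for Mgll and −0.25 for Abhd6 on the log2 scale (edgeR's quasi-likelihood test of the difference itself, adjusted p = 0.0135 and 0.0397). This comparison was added after the data had been seen, and both calls ended with the mouse as a block.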

How the results depend on the processing

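Apart from leaving out single libraries, 12 comparisons of the 7 genes were recomputed, those of psilocybin, region and time. Of 212 alternative values for the 17 called differences, 179 kept direction and call, 33 lost the call and 0 reversed. Of 866 for the 67 that were not called, 98 changed sign, 6 became called and 0 did both, and outside fits to a single pool no changed sign exceeded 0.0727 on the log2 scale. The cause of these changes was not tested, beyond the fewer libraries in single-pool fits. For the regional differences in the 4 separate sets of mice no alternatives were run. Printed values that reversed under settings other than leaving out single libraries were Cnr1 in the PFC psilocybin comparison at 4 weeks with all 64 libraries (−0.0414), Daglb there in the first pool (0.0103), Napepld in the hypothalamus at 3 h in the second pool (−0.0627), Cnr1 in the hypothalamus at 4 weeks under the study's procedure (0.0306), without the doubted hypothalamic library (0.00765), without both doubted libraries (0.00802) and in the first pool (0.00973), Daglb there without a filter (−0.0232) and in the second pool (−0.0162), and Mgll from 3 h to 4 weeks in psilocybin-treated hypothalamus without a filter (−0.00114) and in the first pool (−0.0281). Uncalled values near 0 also changed sign without single libraries, among them Cnr1 in the PFC at 4 weeks (lowest −0.00924) and Daglb in the hypothalamus at 4 weeks (4 of 16 omissions, lowest −0.0110).

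The count of genes lower at 4 weeks in saline-treated PFC, 3, was 1 without a filter, 1 with only the compared groups, 1 in the first pool and 0 in the second. It was 2 without the pool term and under the study's procedure, and 2 to 3 when each library was left out. In psilocybin-treated PFC, 2 became 1 without a filter, 1 without the pool term, 1 with all 64 libraries, 1 without the doubted PFC library, 1 without both doubted libraries and 0 in either pool, and 1 to 2 when each library was left out. Over both treatments 3 became 1 in the second pool. For the difference between regions, 2 became 0 without a filter, 0 without the pool term, 1 with the cage number as a replicate block, 0 with the mouse as a replicate block, 1 with all 64 libraries, 1 without the doubted PFC library, and 1 to 2 when each library was left out. The block on the cage number changed no other count. Same-numbered libraries of different mice had a mean correlation of 0.0806 in the PFC and 0.0723 in the hypothalamus, and −0.0415 and −0.0236 once pool means were removed. Libraries taken as the same mouse had 0.0854, and 0.0289 once pool means were removed. Values this low, also for libraries taken as the same mouse, cannot decide whether the cage number pairs mice of different groups. Under the study's procedure Daglb was also called higher at 4 weeks in psilocybin-treated PFC (0.16, adjusted p = 0.0304). Pools of 4 mice a group limit what single-pool fits can call.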

Other observations

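The extraction pools differed for several of the 7 genes. In the PFC the medians of pools C and D were 143 and 109.9 CPM for Dagla, 123 and 97.5 CPM for Faah, 211 and 181 CPM for Cnr1 and 414 and 473 CPM for Mgll. Those of Abhd6 were close, 61.9 and 60.95 CPM. In the hypothalamus those of pools A and B were 81.8 and 99.5 CPM for Mgll and 117 and 94.6 CPM for Cnr1. Each pool held libraries of every treatment and time of its region, and pool was a term in the model.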
